A study of Mus musculus with 4 samples.

Results

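Endothelial cell genes were followed in the epididymal adipose tissue of obese mice. The 42 genes were taken by symbol from a list of genes known from vascular endothelium, and all 42 were found among the 24421 genes of the expression matrices. By their usual place in the vascular tree, 5 were classed as arterial, 4 as capillary, 3 as venous and 2 as capillary and venous, whereas 28 are common to most endothelial cells. The animals were wild-type (WT) male C57BL/6J mice with different dietary histories. Ctrl mice began a high-fat diet (HFD) at 10 weeks of age and stayed on it for 14 weeks. WC1 mice, the weight-cycling group, began HFD at 8 weeks of age, ate it for 8 weeks, changed to standard diet (SD) for 2 weeks and returned to HFD for 6 weeks. Both groups had 14 weeks of HFD in total and reached 24 weeks of age. There were 2 libraries per group, called Ctrl 1, Ctrl 2, WC1 1 and WC1 2. Whether each library came from a single mouse is not given in the labels, so the p-values measure only the spread between these libraries.

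Endothelial cells line blood vessels and hold together through junctions made of VE-cadherin, claudin-5 and PECAM1. Arterial identity depends on Notch signalling through DLL4, capillaries of fat take up fatty acids where GPIHBP1 presents lipoprotein lipase, and venules carry the selectins that capture leukocytes. In obese fat the vascular bed grows or falls behind as adipocytes enlarge, and leukocytes enter through its venules.

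The libraries held between 61465029 and 90965297 reads, and 3 reads corresponded to between 0.0345 and 0.0492 CPM. CPM here means the deposited reads of a gene scaled to library size, which compare 1 gene between libraries, whereas TPM is scaled after a correction for transcript length and also compares genes with each other. A gene was called when its adjusted p was under 0.05 in limma, a linear model with moderated variance fitted on log2(CPM + 1) to the 14106 genes that reached 0.5 CPM in 2 or more libraries. Fold changes are WC1 minus Ctrl on this log2 scale, which understates the change of low genes. All adjusted p values below come from this limma fit and were adjusted over all tested genes after Benjamini-Hochberg, unless another fit is named.

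The upstream sequence of 4 members is shown, for a tight junction gene with one of the largest rises (Cldn5), the arterial Notch ligand (Dll4), a called gene with several motif copies (Ushbp1) and the inducible selectin of venules, the only member below the filter on low values (Sele). The windows hold the 250 bases before the RefSeq start, 5′ to 3′ in the direction of the gene, on build GRCm38.p6: chr16:18776597-18776846 (plus strand) for Cldn5, chr2:119325534-119325783 (plus strand) for Dll4, chr8:71395802-71396051 (minus strand) for Ushbp1 and chr1:164047984-164048233 (plus strand) for Sele. Capitals mark GGAAG or its reverse complement CTTCC. This motif holds GGAA, the core bound by ETS factors such as ERG, a member. Other copies of GGAA or its reverse complement TTCC are not marked or counted.
Cldn5: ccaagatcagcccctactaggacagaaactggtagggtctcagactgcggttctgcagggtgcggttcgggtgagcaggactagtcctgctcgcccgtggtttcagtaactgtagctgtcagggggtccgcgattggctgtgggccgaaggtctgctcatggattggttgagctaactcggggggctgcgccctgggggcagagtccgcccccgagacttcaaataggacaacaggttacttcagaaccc
Dll4: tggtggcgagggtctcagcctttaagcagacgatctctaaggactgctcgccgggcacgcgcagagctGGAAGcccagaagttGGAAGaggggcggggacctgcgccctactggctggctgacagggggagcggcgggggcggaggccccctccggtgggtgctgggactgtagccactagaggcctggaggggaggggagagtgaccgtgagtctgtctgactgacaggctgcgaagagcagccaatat
Ushbp1: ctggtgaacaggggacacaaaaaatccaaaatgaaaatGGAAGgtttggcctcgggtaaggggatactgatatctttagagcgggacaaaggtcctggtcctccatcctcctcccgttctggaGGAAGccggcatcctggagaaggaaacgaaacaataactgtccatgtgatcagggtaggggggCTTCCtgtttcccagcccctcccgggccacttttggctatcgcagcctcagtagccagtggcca
Sele: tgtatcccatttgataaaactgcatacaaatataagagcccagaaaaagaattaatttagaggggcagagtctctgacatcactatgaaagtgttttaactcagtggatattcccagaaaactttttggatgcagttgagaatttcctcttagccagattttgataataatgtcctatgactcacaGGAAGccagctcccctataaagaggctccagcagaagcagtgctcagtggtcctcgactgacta

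The Cldn5 window held no copy of the marked motif, the Dll4 window held 2, the Ushbp1 window held 2 forward copies and 1 reverse copy, and the Sele window held 1. Windows were found for 23 of the 42 members, 29 windows in all. GGAAG or CTTCC was present in 82.8% of them, compared to 64.1% of 32851 windows of the same length over all genes. The longer CAGGAAG or CTTCCTG, which contains the same motif, was present in 31.0% of member windows and 10.8% of all windows. It lay upstream of 8 members, namely Cyyr1, Egfl7, Emcn, Erg, Rasip1, Robo4, Sele and Ushbp1. A match is a description of the letters and not of binding.

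Endothelial genes were mostly higher in the weight-cycled tissue. Of the 41 members that were tested, 30 rose in WC1, 0 fell and 11 did not pass the test, compared to 10.2% of all tested genes called higher and 7.71% called lower. At an unadjusted p under 0.05, 35 members were higher and 0 lower, where 18.9% of all tested genes were higher and 18.9% lower. In edgeR, 30 members were called higher and 0 lower, beside 10.5% and 7.14% of all tested genes. The median log2 fold change of the members was 1.01, compared to -0.02 over all tested genes. Both WC1 libraries lay above both Ctrl libraries in 36 members and below them in 1 (Ly6c1), where 32.7% and 36.6% of all tested genes did so. The called members rose by between 0.65 and 1.76 on the log2 scale, with SE between 0.10 and 0.23 and adjusted p between 0.0088 and 0.040. In 23 of these 30 genes the mean CPM was at least 2 times the Ctrl mean. The calls rested on both Ctrl libraries. Without Ctrl 1, 0 members were called (0.0142% of all tested genes were called higher), and 31 were higher at an unadjusted p under 0.05 (10.7% of all). Without Ctrl 2, 0 members were called (0.0425% of all), and 32 were higher at an unadjusted p under 0.05 (12.9% of all). When every gene with a value above 0 in at least 1 library was tested, 16 members were called higher, beside 4.35% of all genes. The 14 that lost their call were Aqp1, Arhgef15, Clec14a, Cyyr1, Ecscr, Gja4, Hey1, Mmrn2, Nos3, Ptprb, Rasip1, Robo4, Shank3 and Sox17. Robo4 and Shank3 also lost it without the abundance trend of limma, and Clec14a without WC1 2. Because the tissue was measured in bulk, more endothelial cells and more RNA of these genes per endothelial cell cannot be told apart.

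**Figure D1:**
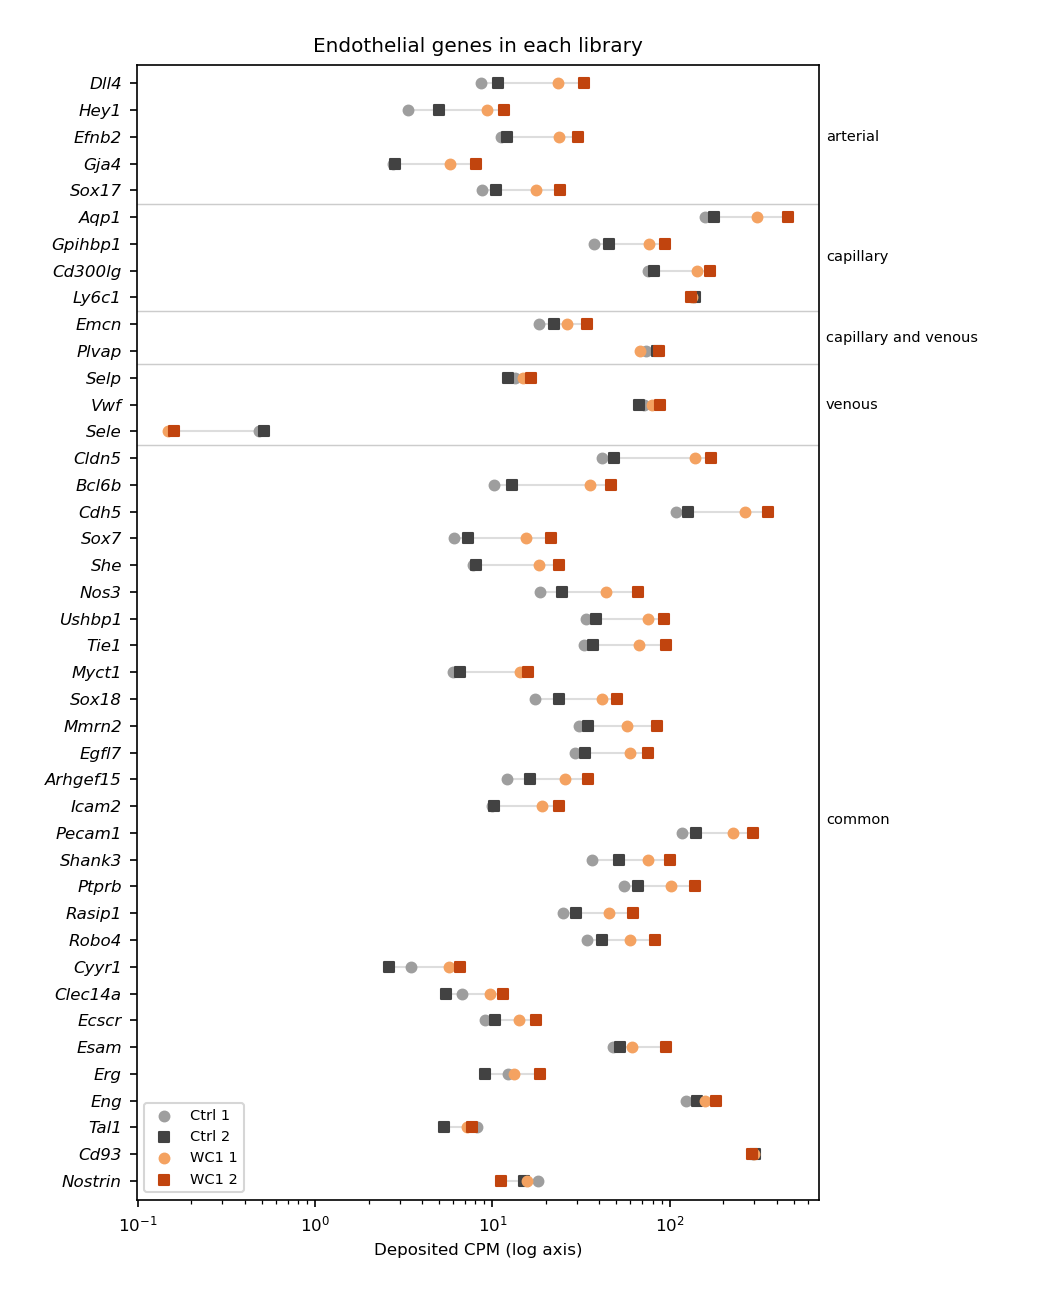
Deposited CPM (log axis) of the 42 endothelial genes in each of the 4 libraries, grouped by vascular class. Grey symbols are Ctrl and orange symbols are WC1, and in 36 tested genes both orange symbols lie to the right of both grey ones, while Ly6c1 and Sele show the opposite order.

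The classes of the vascular tree were then compared. All 5 arterial genes and 3 of 4 capillary genes rose, whereas none of the 2 venous genes tested and none of the 2 capillary and venous genes passed the test, beside 10.2% of all tested genes called higher and 7.71% called lower. Without the filter on low values, 2 of 5 arterial genes (Dll4 and Efnb2) and 2 of 4 capillary genes (Gpihbp1 and Cd300lg) were called, beside 4.35% of all genes. The median log2 fold change was 1.14 in the arterial class, 1.0 in the capillary class, 0.27 in the venous class and 0.26 in the mixed class. The 28 common genes had a median of 1.01, with 22 called. These class differences were not tested, since members share their libraries and the classes hold few genes. Both tested venous genes, Vwf and Selp, are also made by other cells, as are Hey1, Efnb2, Aqp1 and Ly6c1. The part of other cells in the class medians was not tested.

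Among the arterial genes, Dll4 encodes the Notch ligand of arterial and sprouting endothelium. It measured 8.61 and 10.7 CPM in Ctrl 1 and Ctrl 2 and 23.4 and 32.8 CPM in WC1 1 and WC1 2. Dll4 rose by 1.44 ± 0.19 (SE) on the log2 scale (adjusted p = 0.019). Hey1 encodes a transcriptional repressor induced by Notch, and was measured at 3.32 and 5.02 CPM in the Ctrl libraries and at 9.32 and 11.6 CPM in the WC1 libraries. Hey1 rose by 1.16 ± 0.20 (adjusted p = 0.027). The groups did not overlap for either gene. Efnb2, which encodes ephrin-B2, the arterial partner of the venous receptor EPHB4, stood at 11.1 and 12.1 CPM under continuous HFD and at 23.7 and 30.3 CPM after weight cycling. Efnb2 rose by 1.14 ± 0.14 (adjusted p = 0.017). Gja4, the gap junction protein connexin 37, stood at 2.75 and 2.82 CPM in Ctrl mice and at 5.74 and 8.10 CPM in WC1 mice. Gja4 rose by 1.05 ± 0.17 (adjusted p = 0.025). Sox17, a SOX factor needed for arterial fate, was at 8.69 and 10.4 CPM in the Ctrl libraries and at 17.5 and 24.1 CPM in the WC1 libraries, and rose by 1.04 ± 0.18 (adjusted p = 0.026). In each of the 5 arterial genes WC1 2 had the highest value and Ctrl 1 the lowest.

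The capillary genes included the most abundant members per transcript length. Aqp1, the water channel of capillary endothelium and of red cells, measured 158 and 178 CPM under continuous HFD and 311 and 464 CPM after weight cycling. It rose by 1.18 ± 0.20 (adjusted p = 0.027). Gpihbp1, which carries lipoprotein lipase to the capillary lumen, was at 37.5 and 45.4 CPM in Ctrl mice and at 76.4 and 94.2 CPM in WC1 mice, and rose by 1.02 ± 0.14 (adjusted p = 0.020). Cd300lg, a mucin-like surface protein of capillaries, was at 75.3 and 81.1 CPM in the Ctrl libraries and at 142 and 168 CPM in the WC1 libraries, and rose by 0.97 ± 0.10 (adjusted p = 0.014). In these 3 genes both WC1 libraries lay above both Ctrl libraries. Ly6c1, a GPI-anchored surface protein, stood apart from them with 137 and 138 CPM under continuous HFD and 134 and 131 CPM after weight cycling. Its log2 fold change was -0.06 ± 0.06 (adjusted p = 0.55), and its sign turned to 0.08 in TPM and to 0.01 after quantile normalization. Ly6c1 has a near-identical neighbour, the monocyte gene Ly6c2, and their reads may be shared. Ly6c2, named after its values were seen, was at 5.98 and 5.06 CPM in Ctrl mice and 4.83 and 5.97 CPM in WC1 mice.

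None of the 3 venous genes was called higher. Vwf encodes von Willebrand factor, which endothelium and megakaryocytes make, and was measured at 71.5 and 66.8 CPM in the Ctrl libraries and at 79.4 and 87.6 CPM in the WC1 libraries. The log2 fold change of Vwf was 0.27 ± 0.08 (adjusted p = 0.082). Selp, P-selectin of endothelium and platelets, was at 13.4 and 12.2 CPM under continuous HFD and at 14.8 and 16.5 CPM after weight cycling, with a log2 fold change of 0.27 ± 0.10 (adjusted p = 0.13). In both genes the WC1 libraries lay above the Ctrl libraries, but neither passed the test with all libraries. With 1 library left out, Vwf ranged from 0.20 to 0.34, and without WC1 1 it was called higher. Sele, the endothelial E-selectin induced by inflammatory cytokines, was the only member below the filter, with 0.483 and 0.517 CPM in Ctrl mice and 0.147 and 0.159 CPM in WC1 mice. These values corresponded to 33 and 45 reads under continuous HFD and to 9 and 10 reads after weight cycling, and the groups did not overlap. When every gene above 0 in at least 1 library was tested (18132 genes), 2.93% were called lower and Sele was 1 of them, at -0.38 ± 0.05 (SE, limma adjusted p = 0.039), and with a filter of 0.5 CPM in 1 library the same difference had an SE of 0.13 and a limma adjusted p of 0.11.

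Emcn and Plvap are found on capillaries and veins. Emcn encodes endomucin, a sialomucin of the luminal surface, and measured 18.4 and 22.1 CPM in the Ctrl libraries and 26.3 and 34.0 CPM in the WC1 libraries. Its log2 fold change was 0.55 ± 0.16 (adjusted p = 0.072). It was not called in edgeR but was called in DESeq2, with the replicate number as a block and without WC1 1, where it was 0.73, compared to 0.37 without WC1 2. Plvap encodes the protein of fenestral and caveolar diaphragms and was at 73.4 and 84.5 CPM under continuous HFD and at 68.3 and 86.7 CPM after weight cycling. The groups overlapped, and the log2 fold change of -0.03 ± 0.14 (adjusted p = 0.88) turned to 0.11 in TPM and to 0.00 after quantile normalization.

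**Figure D2:**
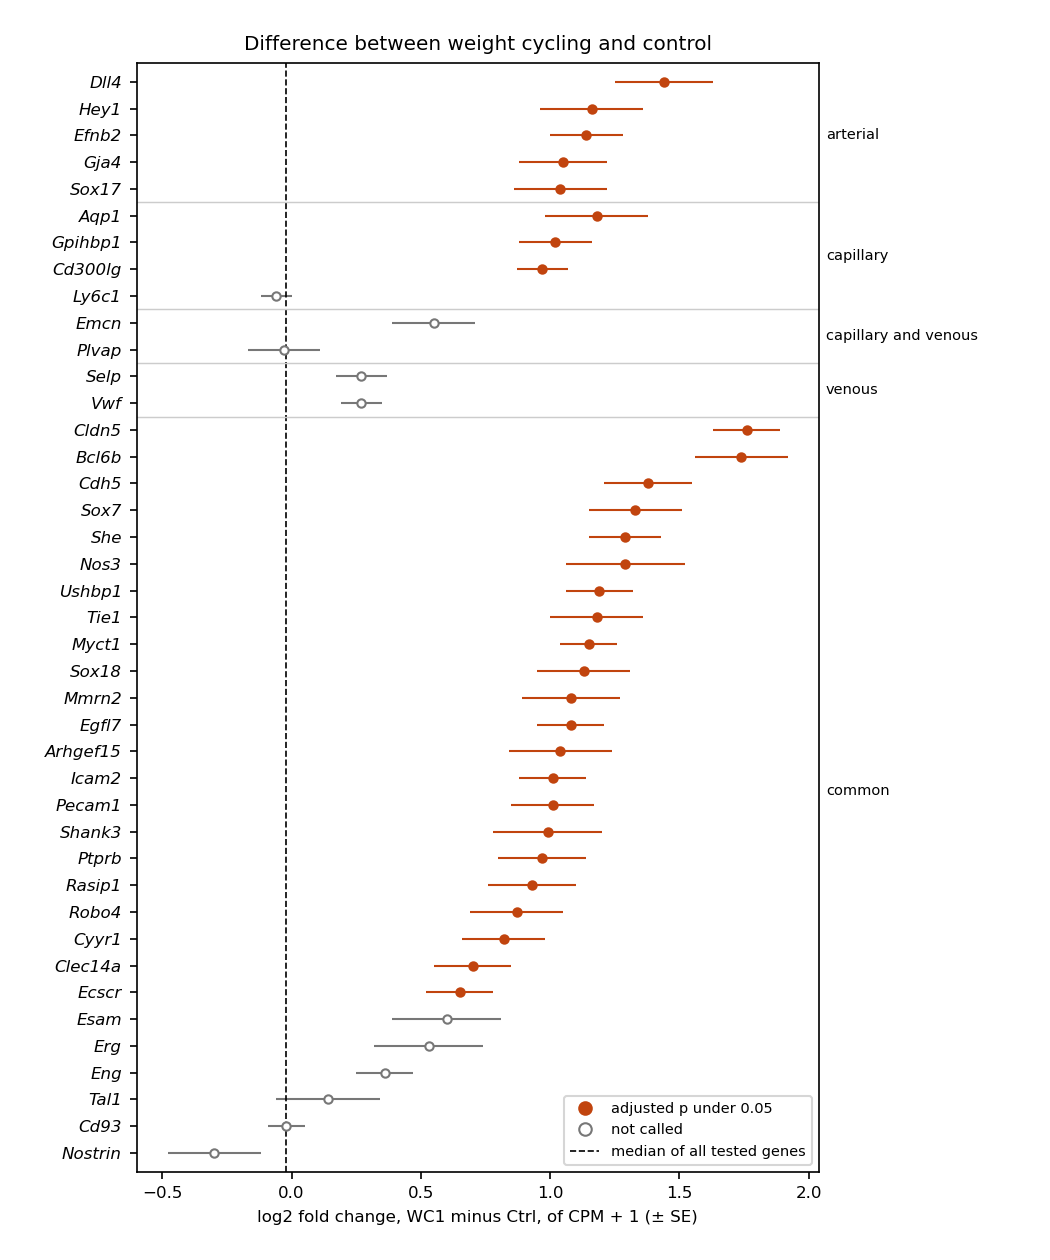
Log2 fold change of CPM + 1 (WC1 minus Ctrl, limma, ± SE, 2 libraries per group) of the 41 tested endothelial genes by vascular class. Filled symbols are genes with an adjusted p under 0.05, and the dashed line is the median of all tested genes, -0.02. The 5 arterial genes lie between 1.04 and 1.44, whereas both venous genes, which other cells also make, lie at 0.27.

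Among the common genes, those of cell junctions and adhesion were examined first. The counts by role given from here on stand beside 10.2% of all tested genes called higher, and beside 30 of 41 members. With Gja4 the junction genes formed a group of 7, of which 6 rose. Cldn5, claudin-5 of tight junctions, measured 41.2 and 48.2 CPM in Ctrl mice and 138 and 170 CPM in WC1 mice. It rose by 1.76 ± 0.13 (adjusted p = 0.0088). Cdh5, VE-cadherin of adherens junctions, was at 108 and 127 CPM in the Ctrl libraries and at 266 and 358 CPM in the WC1 libraries, and rose by 1.38 ± 0.17 (adjusted p = 0.016). Pecam1, the platelet endothelial adhesion molecule, which leukocytes and platelets carry too, was at 117 and 140 CPM under continuous HFD and at 226 and 293 CPM after weight cycling. Pecam1 rose by 1.01 ± 0.16 (adjusted p = 0.024). For these 3 genes the lower WC1 library was well above the higher Ctrl library. Icam2, an adhesion molecule for leukocyte integrins, was at 9.91 and 10.2 CPM in Ctrl mice and at 19.0 and 23.8 CPM in WC1 mice, a log2 fold change of 1.01 ± 0.13. Ecscr, an endothelial chemotaxis regulator, was at 9.11 and 10.3 CPM in the Ctrl libraries and at 14.2 and 17.5 CPM in the WC1 libraries. With 0.65 ± 0.13 (adjusted p = 0.038) it had the smallest change among the called members. Esam, an immunoglobulin-like tight junction protein that platelets also carry, was at 47.8 and 52.3 CPM under continuous HFD and at 61.2 and 94.9 CPM after weight cycling, a difference of 0.60 ± 0.21 that was not called (adjusted p = 0.11). Esam was called in DESeq2, with the replicate block and without WC1 1, where it was 0.91, whereas it was 0.29 and not called without WC1 2.

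Transcription factors of endothelial identity formed the next group, and 5 of 7 rose, with Hey1 and Sox17 given above. Bcl6b, a zinc finger repressor, was measured at 10.2 and 12.9 CPM in Ctrl mice and at 35.3 and 46.6 CPM in WC1 mice. Its rise of 1.74 ± 0.18 (adjusted p = 0.014) was close to that of Cldn5, within the SE of either gene, and their order depended on the setting (Bcl6b 1.84 and Cldn5 1.80 in edgeR). Sox7 and Sox18 are SOX factors of the same subgroup as Sox17. Sox7 was at 6.07 and 7.23 CPM in the Ctrl libraries and at 15.5 and 21.4 CPM in the WC1 libraries, and rose by 1.33 ± 0.18. Sox18 was at 17.4 and 23.8 CPM under continuous HFD and at 41.4 and 50.5 CPM after weight cycling, and rose by 1.13 ± 0.18. All 3 SOX genes of this subgroup thus rose, without overlap between groups. Erg, the ETS factor that maintains endothelial identity, was an exception, with 12.2 and 9.10 CPM in Ctrl mice and 13.2 and 18.5 CPM in WC1 mice. Its log2 fold change of 0.53 ± 0.21 was not called (adjusted p = 0.14). Without WC1 1 it was 0.76 and was called, and it was 0.30 without WC1 2 and 0.33 without Ctrl 2. Tal1, a factor of blood and vascular progenitors that is also made by erythroid and mast cells, was at 8.23 and 5.32 CPM in the Ctrl libraries and at 7.18 and 7.64 CPM in the WC1 libraries. The groups overlapped for Tal1 (0.14 ± 0.20, adjusted p = 0.65), and without Ctrl 2 its sign turned to -0.14.

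Receptors and the phosphatase that acts on them were considered next. With Dll4 and Efnb2 they formed a group of 8, of which 6 rose. Tie1, a receptor tyrosine kinase that modulates angiopoietin signalling, was at 32.8 and 36.7 CPM under continuous HFD and at 67.0 and 95.4 CPM after weight cycling, and rose by 1.18 ± 0.18. Ptprb, the phosphatase VE-PTP that acts on TIE2 and VE-cadherin, was at 55.0 and 66.4 CPM in Ctrl mice and at 102 and 138 CPM in WC1 mice, and rose by 0.97 ± 0.17. Robo4, a receptor that stabilizes the vessel wall, was at 34.3 and 41.7 CPM in the Ctrl libraries and at 59.5 and 82.8 CPM in the WC1 libraries, and rose by 0.87 ± 0.18. None of these 3 genes overlapped between groups. Clec14a, a C-type lectin of endothelium, was at 6.76 and 5.44 CPM under continuous HFD and at 9.64 and 11.4 CPM after weight cycling, and rose by 0.70 ± 0.15. Eng, the TGF-beta co-receptor endoglin, which macrophages and stromal cells also make, was at 123 and 143 CPM in Ctrl mice and at 158 and 183 CPM in WC1 mice. Its difference of 0.36 ± 0.11 (adjusted p = 0.088) was not called, but it was in DESeq2, with the replicate block and without WC1 1 (0.46), compared to 0.25 without WC1 2. Cd93, a C-type lectin relative of Clec14a that myeloid cells also carry, had similar values in all libraries, with 295 and 302 CPM in the Ctrl libraries and 297 and 292 CPM in the WC1 libraries. The groups overlapped, with a log2 fold change of -0.02 ± 0.07 (adjusted p = 0.85) whose sign turned to 0.12 in TPM and to 0.09 after quantile normalization.

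Of the secreted proteins of endothelium other than Vwf, both rose. Mmrn2, a matrix glycoprotein that binds CLEC14A and CD93, was at 30.7 and 34.4 CPM under continuous HFD and at 57.7 and 84.7 CPM after weight cycling, a log2 fold change of 1.08 ± 0.19. Egfl7, a secreted factor whose gene hosts the microRNA miR-126, was at 29.3 and 33.4 CPM in Ctrl mice and at 59.8 and 75.2 CPM in WC1 mice, a log2 fold change of 1.08 ± 0.13. The groups were apart in both genes. On GRCm38, exons of Egfl7 overlap those of Agpat2 on the other strand, and the sources do not give whether reads were counted by strand. Agpat2, named after its values were seen, was at 218 and 221 CPM in the Ctrl libraries and 339 and 372 CPM in the WC1 libraries and rose by 0.69 ± 0.08 (adjusted p = 0.016), so the share of its reads in the Egfl7 value is uncertain. In all, 10 members had exons that overlap another annotated gene, 8 of them called, and for these the reads may be split or shared.

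Of the 7 genes of intracellular signalling, 6 rose. Nos3, the endothelial nitric oxide synthase, was measured at 18.5 and 24.6 CPM under continuous HFD and at 43.5 and 66.1 CPM after weight cycling, and rose by 1.29 ± 0.23 (adjusted p = 0.029). She, an SH2 domain adaptor, was at 7.75 and 8.08 CPM in Ctrl mice and at 18.2 and 23.6 CPM in WC1 mice, and rose by 1.29 ± 0.14 (adjusted p = 0.015). Both had the same change, although the SE of Nos3 was larger. Ushbp1 was at 33.6 and 38.4 CPM in the Ctrl libraries and at 75.3 and 92.4 CPM in the WC1 libraries, a rise of 1.19 ± 0.13. Arhgef15 was at 12.1 and 16.3 CPM under continuous HFD and at 25.7 and 34.6 CPM after weight cycling, a rise of 1.04 ± 0.20. Neither gene overlapped between groups. Shank3, a scaffold protein best known from synapses, was at 36.3 and 51.9 CPM in Ctrl mice and at 75.8 and 99.8 CPM in WC1 mice. Shank3 rose by 0.99 ± 0.21, with the highest adjusted p of the called members (0.040). Rasip1, a RAP1 effector of vessel lumen formation, was at 25 and 29.7 CPM in the Ctrl libraries and at 45.4 and 61.7 CPM in the WC1 libraries, a rise of 0.93 ± 0.17. Nostrin, a trafficking adaptor of NOS3, was not called, unlike its partner, with 18.1 and 15.0 CPM under continuous HFD and 15.6 and 11.2 CPM after weight cycling. The groups overlapped for Nostrin, and its log2 fold change of -0.30 ± 0.18 (adjusted p = 0.29) was the lowest of the tested members. Its value depended on single libraries: it was -0.53 and called lower without WC1 1, but -0.07 without WC1 2 and -0.17 without Ctrl 1. The membrane proteins Myct1 and Cyyr1 completed the list. Myct1 was at 5.98 and 6.52 CPM in Ctrl mice and at 14.3 and 15.9 CPM in WC1 mice, a rise of 1.15 ± 0.11. Cyyr1 was at 3.48 and 2.60 CPM in the Ctrl libraries and at 5.67 and 6.56 CPM in the WC1 libraries, a rise of 0.82 ± 0.16.

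The members were also divided by whether other cells of the tissue make them. Of the 29 tested genes not known from other cells of fat, 25 rose (10.2% of all tested genes were called higher), with a median log2 fold change of 1.04. Of the 12 genes that leukocytes, platelets, red cells or stromal cells also make, 5 rose, with a median of 0.48. The 7 of these that did not pass the test were Cd93, Eng, Esam, Ly6c1, Selp, Tal1 and Vwf. Among the genes not known from other cells, Emcn, Erg, Nostrin and Plvap did not pass.

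To compare members within a library, independent of its scaling, CPM values were divided by the Cdh5 value of the same library. Since Cdh5 itself rose by 1.38, the choice of this divisor gives a lower ratio to any gene that rose clearly less, and the ratios restate the fold changes relative to VE-cadherin. The ratio of Vwf to Cdh5 was 0.660 and 0.524 in Ctrl mice and 0.299 and 0.245 in WC1 mice. The ratio of Selp to Cdh5 was 0.123 and 0.0958 in the Ctrl libraries and 0.0558 and 0.0460 in the WC1 libraries, and that of Plvap was 0.677 and 0.663 under continuous HFD and 0.257 and 0.242 after weight cycling. These 3 ratios were lower in both WC1 libraries. The ratio of Dll4 was 0.0794 and 0.0837 in Ctrl mice and 0.0881 and 0.0916 in WC1 mice, and that of Efnb2 was 0.103 and 0.0951 in the Ctrl libraries and 0.0891 and 0.0846 in the WC1 libraries. The ratio of Sox17 was 0.0801 and 0.0813 in Ctrl mice and 0.0660 and 0.0673 in WC1 mice, and the ratios of Hey1 and Gja4 overlapped between groups. Of the 5 arterial genes, Dll4 was thus higher, Efnb2 and Sox17 were lower and the other two overlapped. Among the capillary genes, the ratio of Aqp1 was 1.45 and 1.39 under continuous HFD and 1.17 and 1.29 after weight cycling, that of Gpihbp1 was 0.346 and 0.356 in the Ctrl libraries and 0.287 and 0.263 in the WC1 libraries, and that of Cd300lg was 0.694 and 0.636 in Ctrl mice and 0.533 and 0.469 in WC1 mice. All 3 were lower in both WC1 libraries. The ratio of Ly6c1 was 1.27 and 1.09 in the Ctrl libraries and 0.504 and 0.367 in the WC1 libraries, also lower in both. Cldn5 exceeded Cdh5 in its rise, with ratios of 0.380 and 0.378 under continuous HFD and 0.519 and 0.474 after weight cycling. These ratios are descriptions, and no test was made on them.

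Levels were compared between genes in TPM, given as mean ± SD of 2 libraries. In Ctrl, Ly6c1 was highest with 313 ± 3.9 TPM, followed by Aqp1 with 117 ± 11 TPM and Gpihbp1 with 99.9 ± 14 TPM. Aqp1 was above Gpihbp1 in each Ctrl library (109 against 90.0 TPM in Ctrl 1, 124 against 110 TPM in Ctrl 2), a difference that was not tested. In WC1, Ly6c1 was again first with 332 ± 3.7 TPM, and Aqp1 was next with 298 ± 90 TPM, although in WC1 2 alone Aqp1 (361 TPM) was above Ly6c1 (334 TPM). Cldn5 moved from rank 9 (60.6 ± 7.1 TPM) to rank 3 (231 ± 39 TPM), level with Gpihbp1 at 227 ± 39 TPM. In contrast, Cd93 moved from rank 4 (86.5 ± 2.0 TPM) to rank 10 (93.9 ± 1.1 TPM) and Plvap from rank 5 (75.2 ± 8.0 TPM) to rank 12 (81.5 ± 15 TPM). The arterial genes were among the low members, with Dll4 at 5.36 ± 0.85 TPM in Ctrl and 17.3 ± 4.5 TPM in WC1. Sele was the lowest, with 0.326 ± 0.016 TPM in Ctrl and 0.101 ± 0.0091 TPM in WC1. Summed over the 42 members, TPM came to 1344 and 1499 in Ctrl mice and to 2357 and 3027 in WC1 mice. The median log2 fold change over all tested genes was 0.12 higher in TPM than in CPM, and relative to it the members' median was 1.04.

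**Figure D3:**
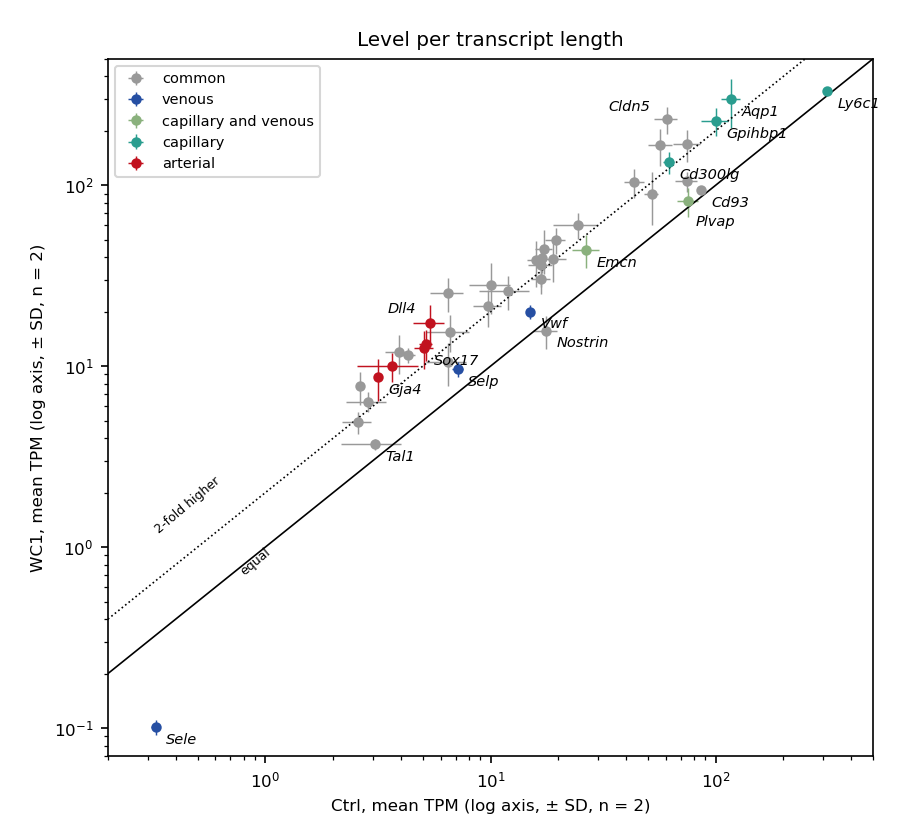
Mean TPM of each endothelial gene in Ctrl (horizontal) and WC1 (vertical), both on log axes, with SD of 2 libraries as bars and colours for the vascular classes. The solid line marks equal levels and the dotted line 2-fold higher levels in WC1. The arterial genes lie above the dotted line, whereas Ly6c1, Cd93 and Plvap lie near the solid line and Sele below it.

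The libraries within a group also differed over the members. WC1 2 was above WC1 1 in 38 of the 41 tested members (92.7%), with a median log2 difference of 0.34, whereas 45.2% of all tested genes were higher in WC1 2. Ctrl 2 was above Ctrl 1 in 34 of 41 (82.9%), with a median of 0.18, compared to 51.2% of all tested genes. The median arterial level, each gene centred over the libraries on the log2 scale, was -0.63 and -0.51 in Ctrl and 0.40 and 0.74 in WC1, and that of the capillary genes was -0.59 and -0.41 in Ctrl and 0.33 and 0.64 in WC1. For the 2 venous genes it was -0.08 and -0.19 under continuous HFD and 0.06 and 0.21 after weight cycling. The order of the libraries was thus the same in the arterial and capillary classes.

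Genes of the same classes that are no members were then counted. The counts stand beside 10.2% of all tested genes called higher and 7.71% called lower. Of 18 further arterial genes, 7 rose and 0 fell, with a median log2 fold change of 0.41. Jag2, a Notch ligand, rose by 1.38 ± 0.25, and Sema3g, a semaphorin of arteries, rose by 0.93 ± 0.14. Of 15 further capillary genes tested, 12 rose and 1 fell, with a median of 0.95. Among them, Btnl9 rose by 1.46 ± 0.08, and the VEGF receptor Kdr, measured at 42.2 and 38.0 CPM under continuous HFD and at 99.7 and 121 CPM after weight cycling, rose by 1.43 ± 0.12. Of 11 further venous genes, 3 rose and 5 fell, with a median of 0.17. Aplnr, the apelin receptor, rose by 1.45 ± 0.11, whereas Bst1, an ectoenzyme that myeloid cells also carry, fell by 1.79 ± 0.14. Of the venous list, 4 genes were singled out after their values were seen. Ephb4, the venous receptor of ephrin-B2, rose by 0.75 ± 0.10 (adjusted p = 0.018). Nr2f2, the venous transcription factor COUP-TFII (0.22 ± 0.16, adjusted p = 0.36), and Ackr1, the chemokine receptor of venules (0.17 ± 0.14, adjusted p = 0.42), were not called. Vcam1, a leukocyte adhesion molecule induced by cytokines, fell by 0.38 ± 0.08 (adjusted p = 0.041).

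Pathways that the members belong to were counted in the same way, leaving the members out and again beside 10.2% of all tested genes called higher and 7.71% called lower. These lists share genes with the class lists above (Notch1, Notch4, Jag1, Jag2 and Hey2 with the arterial list, Cav1 with the capillary list, and Icam1, Vcam1 and Ackr1 with the venous list), so their counts are not separate. In the Notch pathway 7 of 18 genes rose and 0 fell, with a median of 0.11. Mfng, a glycosyltransferase of Notch receptors, rose by 1.0 ± 0.10, and Dll1, a ligand, rose by 1.22 ± 0.15. In the nitric oxide pathway 4 of 15 genes rose and 1 fell, with a median of -0.03. Cav1, the caveolin that binds NOS3 and that adipocytes make in quantity, rose by 0.95 ± 0.18, and Gucy1a3, a subunit of the nitric oxide receptor, rose by 0.88 ± 0.16. Among 14 further endothelial transcription factors 3 rose and 2 fell, with a median of 0.07, and Ets1 rose by 0.91 ± 0.08, whereas Tfec, which macrophages also make, fell by 1.81 ± 0.18. Among 11 leukocyte adhesion genes 2 rose and 2 fell, with a median of 0.14. Mcam, shared with pericytes, rose by 1.11 ± 0.14, and Icam1, shared with leukocytes, fell by 0.48 ± 0.08.

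Markers of other cells of the tissue moved beside the endothelial genes. Their counts stand beside 10.2% of all tested genes called higher and 7.71% called lower. The summed CPM of 12 adipocyte genes was 10357 and 11687 in the Ctrl libraries and 18637 and 23931 in the WC1 libraries, with 8 called higher. That of 12 pericyte and smooth muscle genes was 607 and 644 under continuous HFD and 1001 and 1162 after weight cycling, with 7 called higher. This list includes Mcam (164 and 192 CPM in the Ctrl libraries, 344 and 430 CPM in the WC1 libraries) and Notch3. Both genes are also counted in the pathway lists above, so the counts are not separate. The adipocyte list and the pericyte and smooth muscle list had the same order of libraries as the arterial and capillary genes. In contrast, 12 macrophage genes summed to 12525 and 11430 CPM in Ctrl mice and to 7349 and 5131 CPM in WC1 mice, with 6 called lower, and 9 mast cell genes summed to 574 and 639 CPM in the Ctrl libraries and to 86.8 and 69.9 CPM in the WC1 libraries, with 8 called lower. The 10 fibroblast and progenitor genes summed to between 9963 and 10303 CPM under continuous HFD and to 9400 and 7570 CPM after weight cycling, with 3 called lower. Of these 10 genes, 5 were above 0 and 5 below, with a median log2 fold change of -0.15. Macrophages also make Cd93, Eng and Tfec, and mast cells Tal1. The part of these shifts in the endothelial values was not tested.

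Blood cells share some of the members, and the counts of their markers stand beside 10.2% of all tested genes called higher and 7.71% called lower. Platelet genes, which bear on Selp, Vwf, Esam and Pecam1, summed to 96.2 and 109 CPM in Ctrl mice and to 62.6 and 51.8 CPM in WC1 mice, with 2 of 5 tested called lower and Gp6 at 0 in every library. Erythroid genes, which bear on Aqp1 and Tal1, summed to 227 and 358 CPM in the Ctrl libraries and to 477 and 511 CPM in the WC1 libraries, with 1 of 6 tested called higher. Of these 6 genes, 5 were above 0 and 1 below, with log2 fold changes between -3.49 and 4.85. B cell genes summed to 14.9 and 12.5 CPM in Ctrl mice and to 20.5 and 41.5 CPM in WC1 mice, with 1 of 6 tested called higher and both WC1 libraries above both Ctrl libraries in all 6, as in 32.7% of all tested genes. Mesothelial genes summed to 146 and 107 CPM under continuous HFD and to 73.1 and 197 CPM after weight cycling, and T and NK cell genes to 17.5 and 12.8 CPM in the Ctrl libraries and to 13 and 21.3 CPM in the WC1 libraries. Of the 8 epididymis genes, 6 were at 0 in every library, namely Lcn5, Lcn8, Rnase9, Spink11, Crisp1 and Ces5a, and their sum was at most 3.13 CPM. The adipocyte markers were abundant in every library, as the tissue label requires. Their part in the values of these members was not tested.

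**Figure D4:**
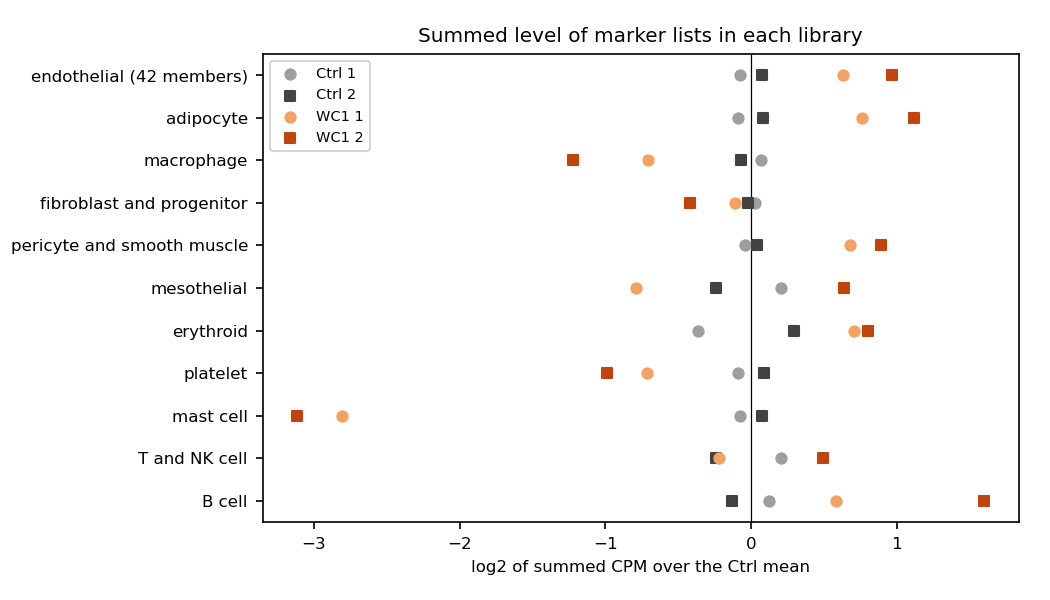
Summed CPM of the 42 endothelial genes and of each marker list except the epididymis list, as log2 of its ratio to the Ctrl mean. Symbols are single libraries. The endothelial, adipocyte, pericyte and smooth muscle, erythroid and B cell lists lie to the right in both WC1 libraries (orange). The macrophage, fibroblast and progenitor, platelet and mast cell lists lie to the left in both. The mesothelial list and the T and NK cell list lie on different sides in the WC1 libraries.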

How the data were processed

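Directional poly(A) libraries from epididymal adipose tissue had been sequenced by the authors, and the submitters' processing notes name fastp, HISAT2, StringTie and the build mm10, whereas the sources used here do not give the read counter and the annotation. The deposited signal, called CPM here, is reads of a gene divided by a library size that the authors had rescaled, since its columns added up to 97.6% to 105% of the sum that defines CPM. All values (100%) were whole reads to within 0.01 read, and these recovered counts were used for edgeR and DESeq2. The authors also deposited TPM values. Read totals were 71658062 and 90965297 in Ctrl mice and 61655738 and 61465029 in WC1 mice, so that for these genes the spread between libraries, not depth, limits the precision, except for Sele. Limits based on reads cover counting error only.

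Groups and replicate numbers were taken from the sample titles. No library was a duplicate: a chi-square test over genes gave 36.95 (Ctrl) and 93.42 (WC1) per degree of freedom between replicates. The filter of 0.5 CPM, reached in 2 libraries or more, left 14106 genes and removed 10315, and kept 41 of the 42 members, each with at least 0.5 CPM in all 4 libraries. Values were transformed to log2(CPM + 1) and tested by limma 3.58.1 in R 4.3.3 (two-sided, variance trend with abundance), with p-values adjusted after Benjamini-Hochberg and a threshold of 0.05. For 1 gene alone, the smallest p of an exact permutation test is 0.333 with 2 against 2 libraries. Alternatives were pseudocounts of 0.5 and 0.1, other filters, the TPM matrix, median-of-ratios and quantile scaling, edgeR 4.0.16, DESeq2 1.42.0, no trend, the replicate number as a block and leaving out each library. The limma script was tested on simulated data. Python 3.11.15 was used for tables and figures.

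All members were accounted for, and from each further list the 2 non-members with the smallest p were named, whereas other genes are said to be named after their values were seen. The members, classes and lists were chosen with earlier results of these data known. Of 270 listed symbols 269 were in the matrices, 3 of them under an older symbol. Coordinates and upstream windows are from GENCODE M21 and RefSeq on GRCm38, the same assembly as mm10. Windows were found for 23 members, and no sequence of chromosome 18, where Ecscr lies, was printed.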

Additional observations from a re-analysis of the deposited data

How the results depend on the processing

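Over 16 alternatives, 556 of 654 fold changes of single members kept their direction and their side of the threshold, 77 lost a call, 12 gained one and 9 turned in sign. With all libraries and the filter in place, between 28 and 33 members were called higher and 0 lower. Over these settings, between 8.85% (no abundance trend) and 15.1% (DESeq2) of all tested genes were called higher. Between 4.13% (TPM) and 12.3% (DESeq2) were called lower. Without a filter, 16 members were called higher and 1, Sele, lower. There 18132 genes were tested, with 4.35% of them called higher and 2.93% lower. Leaving out 1 library gave between 0 and 35 members called higher and between 0 and 1 lower. The count was 0 without Ctrl 1 and 0 without Ctrl 2, with limma adjusted p of the 30 genes from 0.11 to 0.24 and from 0.081 to 0.19, when a single Ctrl library was assumed to vary like WC1. The count was 35 without WC1 1, where Emcn, Eng, Erg, Esam and Vwf were added and 17.2% of all tested genes were called higher and 19.5% lower, and 29 without WC1 2 (10.1% and 8.73%), when the lone WC1 library was assumed to vary like Ctrl, and the members' median stayed between 0.82 and 1.18. Of the 30 called members, 16 were called in every setting with all libraries, and 0 in every setting.

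The arterial median moved from 1.14 to 1.33 in edgeR and 1.34 in DESeq2, and the venous median from 0.27 to 0.39 in TPM, where the all-gene median was also 0.12 higher. Among members not known from other cells the arterial median was 1.05 and the capillary median 1.0, and the venous median had no value because only Sele remained. Signs turned in TPM for Plvap (0.11), Ly6c1 (0.08) and Cd93 (0.12), and after quantile normalization for Plvap (0.00), Ly6c1 (0.01) and Cd93 (0.09). With 1 library left out, Plvap ranged from -0.20 to 0.14 (0.07 without Ctrl 2 and 0.14 without WC1 1), and Tal1 from -0.14 (without Ctrl 2) to 0.41. None of these 4 genes was called in any of these settings. The TPM turns and the venous change came with that shift of all genes. The causes of the other changes were not tested. The labels do not say that equal replicate numbers mark a shared origin, and deviations of equal numbers correlated with r = 0.194 over genes. The fit with the replicate number as a block, the paired analysis, called 33 members higher and 0 lower, adding Esam, Emcn and Eng, beside 12.5% of all tested genes called higher and 10.6% lower.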

Other observations

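Genes of sprouting and of lymphatic vessels were measured beside the members. The sprouting list shares Aplnr with the venous list, Kdr with the capillary list, and Unc5b and Nrp1 with the arterial list. Flt4 is in both the sprouting and the lymphatic list, so these counts are not separate. Of 17 genes of endothelial tip cells and sprouting, members left out, 10 rose in WC1 and 2 fell, with a median log2 fold change of 0.68, compared to 10.2% of all tested genes called higher and 7.71% called lower. By the smallest p these were led by Aplnr, measured at 27.8 and 27.1 CPM under continuous HFD and at 69.9 and 84.8 CPM after weight cycling, and by Kdr, given above. Of 8 lymphatic genes tested, 1 rose and 1 fell, with a median of 0.17. Flt4, the receptor of the lymphatic growth factor VEGF-C, which sprouting blood vessels also carry, was at 5.63 and 9.12 CPM in Ctrl mice and at 14.8 and 17.7 CPM in WC1 mice, and rose by 1.07 ± 0.23 (limma adjusted p = 0.038). Pdpn, podoplanin, which macrophages and stromal cells also make, was at 108 and 102 CPM in the Ctrl libraries and at 53.7 and 37.5 CPM in the WC1 libraries, and fell by 1.20 ± 0.17 (limma adjusted p = 0.021). Prox1, the defining factor of lymphatic endothelium, had 5 and 0 reads in the Ctrl libraries and 14 and 0 reads in the WC1 libraries, so that it was near 0 in all libraries. It was singled out after its values were seen.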
